A study of Homo sapiens with 6 samples.

Results

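Sphingomyelin is the main sphingolipid of the plasma membrane, and 10 genes of its synthesis and breakdown were read in COLO-320DM, an established human colorectal cancer cell line. Its backbone is begun by serine palmitoyltransferase, whose subunits are encoded by SPTLC1 and SPTLC2, and ceramide synthases such as CERS2 add a fatty acid. The sphingomyelin synthases SGMS1, in the Golgi, and SGMS2, largely at the plasma membrane, move phosphocholine from phosphatidylcholine onto ceramide and release diacylglycerol. The sphingomyelinases SMPD1 (acid, lysosomal), SMPD2 and SMPD3 (neutral) turn sphingomyelin back into ceramide. UGCG diverts ceramide into glucosylceramide, and ASAH1, the lysosomal acid ceramidase, cleaves ceramide to sphingosine.

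These genes were represented by all 28 probe sets that the platform annotation gave to 1 of the 10 symbols, dim ones included, out of 54613 tested probe sets and 19775 named genes. A further probe set naming SPTLC1 together with another gene was left out. The genes were chosen by name when earlier results of the CD44-positive against CD44-negative comparison on these same arrays were known, so their differences in that comparison are given as a description, without a test of their own. Differences between the replicate numbers are tested below as a separate measure on the same arrays, although earlier results on the numbers were known as well.

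The series held 6 Affymetrix arrays, 3 of CD44-positive and 3 of CD44-negative cells sorted from COLO-320DM without drug treatment, with replicates numbered 01, 02 and 03 in each sort. Nothing in the labels ties the replicates to separate cultures. Every p-value here therefore reflects the scatter among these 6 arrays alone, and that scatter may be technical. CD44, the hyaluronan receptor used for the sort, stood at 7.70 ± 0.52 in CD44-positive and 5.23 ± 0.22 in CD44-negative cells (log2 intensity, SD, n = 3 each) on its brightest probe set, without overlap. That difference of 2.47 had an adjusted p = 0.0446 in limma's test over all probe sets, and in an exact two-sided permutation test p was 0.1, the floor for groups of 3. It no longer passed when any 1 array other than CD44-positive replicate 03 was left out (adjusted p up to 0.434), with differences of 2.26 to 2.56. With the replicate number as a block it passed (adjusted p = 0.000511), also without any 1 pair (adjusted p at most 0.00285), and the CD44 probe set with the largest difference, 5.12, had an adjusted p = 0.0065 without the block. Of 9 epithelial markers 6 lay above the dim limit, a level of 5.12 below which probe sets are called dim here. EPCAM, CDH1 and KRT19, which define many epithelia, lay under it. Among those above it were CDX2 (mean level 11.65), KRT18 (10.00) and KRT8 (8.66). The 9 markers summed to 12.15 to 12.30 in CD44-positive and 12.17 to 12.41 in CD44-negative cells. EPCAM (-0.41, -0.34 and -0.66) and KRT19 (-0.16, -0.45 and -0.19) were lower in the CD44-positive array of every same-numbered pair. KRT20, above the limit, was higher in every pair (0.34, 1.13 and 0.42). All levels below are log2 intensities of single probe sets. They are compared between arrays and not between genes. In the plots, probe sets carry the platform's identifiers; the text ranks those of a gene by brightness over the 6 arrays. In RNA from sorted pools, fewer cells that express a gene and less RNA per cell cannot be told apart.

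SGMS2 was the member with the widest spread, and SMPD1 the other gene with probe sets, 2 of 4, that differed between the replicate numbers. RefSeq's promoter table (GRCh38.p14) listed 3 starts for SGMS2 and 1 for SMPD1. The 250 bases before the second and the third SGMS2 start and before the SMPD1 start are shown, because these are the genes the results turn on. Capitals mark motifs searched on both strands, the GC box GGGCGG and the TATA box TATAAA.
SGMS2 start 2, chr4:107824682-107824931, plus strand: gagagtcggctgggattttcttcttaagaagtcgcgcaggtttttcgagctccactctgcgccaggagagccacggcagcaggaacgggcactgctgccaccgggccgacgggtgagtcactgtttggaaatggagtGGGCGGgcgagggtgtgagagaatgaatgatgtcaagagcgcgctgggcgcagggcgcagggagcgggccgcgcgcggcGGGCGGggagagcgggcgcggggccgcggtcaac
SGMS2 start 3, chr4:107893024-107893273, plus strand: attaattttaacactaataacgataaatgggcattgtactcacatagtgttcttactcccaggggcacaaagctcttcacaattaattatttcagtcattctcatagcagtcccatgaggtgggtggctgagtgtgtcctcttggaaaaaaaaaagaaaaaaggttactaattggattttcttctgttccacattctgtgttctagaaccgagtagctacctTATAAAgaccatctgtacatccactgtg
SMPD1, chr11:6390224-6390473, plus strand: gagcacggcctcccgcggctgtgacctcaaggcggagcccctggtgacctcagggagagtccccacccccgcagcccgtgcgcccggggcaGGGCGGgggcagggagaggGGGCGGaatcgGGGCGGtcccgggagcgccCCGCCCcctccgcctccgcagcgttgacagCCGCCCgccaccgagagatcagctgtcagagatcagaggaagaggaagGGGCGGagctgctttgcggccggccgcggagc

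The windows shown differed in composition. The second SGMS2 start had 67.2% G and C and 2 GC boxes, the third 38.0% G and C and 1 TATA box but no GC box, and the SMPD1 window 75.2% G and C and 6 GC boxes. The first SGMS2 start had neither motif. Of all 35116 windows of the same length, 42.6% held a GC box and 10.7% a TATA box. The E-box CACGTG (in 6.35% of all windows) and the TCF/LEF motif CTTTGAT (in 2.26%) occurred in none of the 9 windows of the members read. Those windows belonged to SGMS1, SGMS2, SMPD1, SMPD2, UGCG, SPTLC1 and SPTLC2. For SMPD3, ASAH1 and CERS2 no window was read. A match here is a match of letters only. The arrays do not tell from which SGMS2 start the measured RNA came.

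SGMS2, the plasma membrane sphingomyelin synthase, showed the largest difference between the sorts among the members. On its brightest probe set it stood at 6.66, 6.96 and 5.74 in CD44-positive replicates 01, 02 and 03, against 3.91, 6.04 and 4.31 in the CD44-negative ones. The CD44-negative replicate 02 lay above the CD44-positive replicate 03, so the groups overlapped, and the other 2 CD44-negative arrays lay under the dim limit. The means were 6.46 ± 0.63 in CD44-positive and 4.76 ± 1.13 in CD44-negative cells (SD, n = 3 each), a difference of 1.70 ± 0.52 (limma's SE), or 3.25-fold. Taken as pairs of the same number, the arrays differed by 2.75, 0.91 and 1.43, and the SE with the replicate number as a block was 0.28. Because 2 levels were dim, the size of the difference is approximate, and it was 1.22 when 16 intensity units were added before the logarithm. Without CD44-negative replicate 02 it was 2.34, and without pair 01 it was 1.17.

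The other SGMS2 probe sets were dim on average and differed by less. The second brightest stood at 4.97, 5.09 and 4.54 in CD44-positive cells and at 4.27, 4.71 and 4.35 in CD44-negative cells. Its difference was 0.42 ± 0.17 (SE, and 0.11 with the replicate block). The third brightest stood at 3.74, 4.07 and 3.40 in CD44-positive and at 3.48, 3.78 and 3.15 in CD44-negative cells. Its difference was 0.27 ± 0.20 (SE, and 0.080 with the block), with pair differences of 0.26, 0.29 and 0.25. In both, as in the brightest probe set, the CD44-positive array was the higher one in 3 of 3 pairs. The 3 probe sets thus gave the same sign with sizes from 0.27 to 1.70.

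SGMS1, the Golgi sphingomyelin synthase, stood at 6.71, 6.46 and 6.59 in CD44-positive and at 6.90, 6.58 and 6.88 in CD44-negative cells on its single probe set. It was lower in the CD44-positive array of each pair, by values of -0.19, -0.12 and -0.29, although the groups overlapped. Its mean difference was -0.20 ± 0.12 (SE, and 0.083 with the replicate block), which is 1.15-fold lower and the largest negative difference among the 28 probe sets. The 2 synthase genes therefore had differences of opposite sign in all pairs, 1.70 and -0.20, without a test of that contrast.

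**Figure D1:**
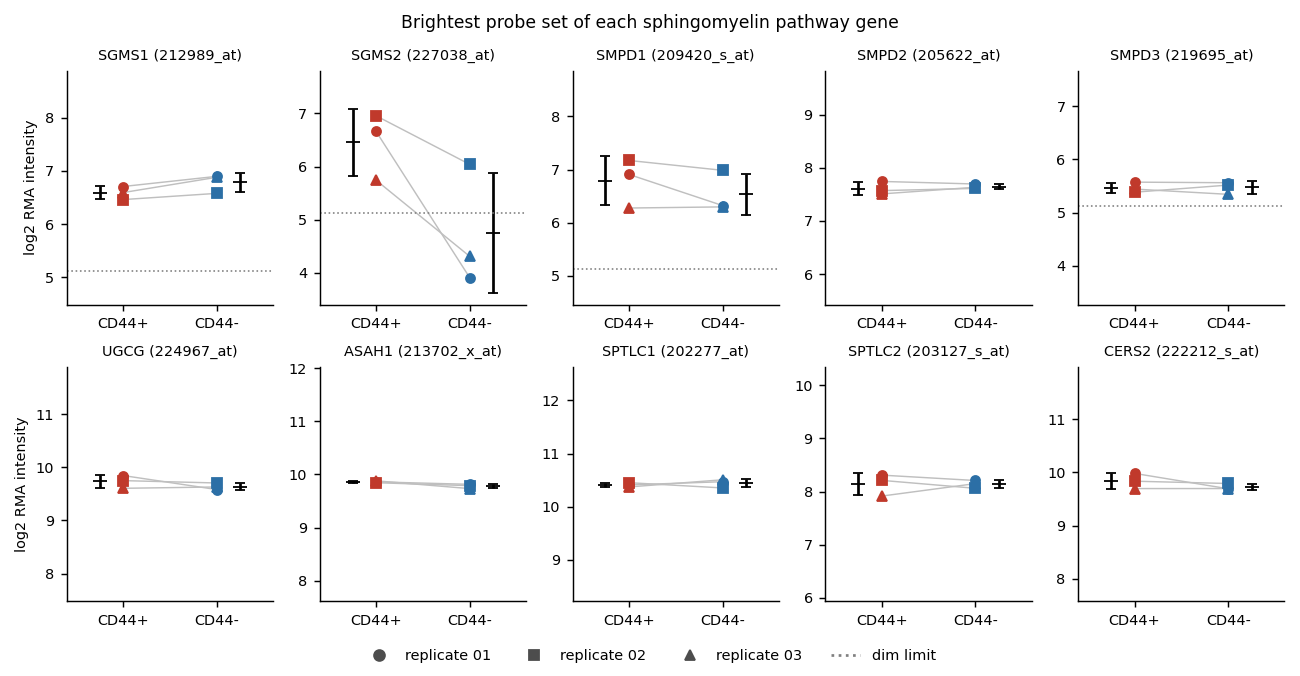
Log2 RMA intensity of the brightest probe set of each of the 10 genes in CD44-positive (left) and CD44-negative (right) cells, with marker shapes for the replicate number, grey lines joining same-numbered arrays, bars for mean ± SD (n = 3) and a dotted line at the dim limit of 5.12 where it falls in the panel. SGMS2 spans 3.91 to 6.96, while the 6 arrays of ASAH1, SPTLC1 and SMPD2 lie close together.

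Among the enzymes that degrade sphingomyelin, SMPD1 had differences of either sign on its 4 probe sets. On its brightest probe set it stood at 6.91, 7.17 and 6.28 in CD44-positive and at 6.32, 6.99 and 6.30 in CD44-negative cells, with pair differences of 0.59, 0.19 and -0.021. The mean difference was 0.25, with an unblocked SE of 0.25 and a blocked SE of 0.12. The second brightest gave 0.20 ± 0.22, with pair differences of 0.32, 0.26 and 0.0080. The remaining SMPD1 probe sets gave -0.066 ± 0.096 and 0.049 ± 0.11, with all levels between 5.57 and 5.90. The neutral sphingomyelinase genes differed less than their SE: SMPD2 by -0.040 ± 0.099 and SMPD3 by -0.0082 ± 0.10 and -0.055 ± 0.13 on its 2 probe sets. SMPD2 stood at 7.74, 7.57 and 7.51 in CD44-positive and at 7.69, 7.61 and 7.63 in CD44-negative cells, so the CD44-negative range lay inside the CD44-positive one. SMPD3 lay close above the dim limit, between 5.21 and 5.63 over both probe sets and all arrays.

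UGCG, which makes glucosylceramide, had positive differences on 3 of 3 probe sets. They were 0.094 ± 0.10 on the brightest, 0.20 ± 0.12 on the second and 0.13 ± 0.16 on the dimmest (SE). The groups overlapped on each of them, and with the replicate block the SE of the second was 0.084. On the second brightest the levels were 8.98, 9.16 and 9.00 in CD44-positive and 8.78, 9.05 and 8.70 in CD44-negative cells, where only the CD44-negative replicate 02 lay within the CD44-positive range.

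The ceramidase gene ASAH1 had 5 probe sets, and its brightest was the only 1 of the 28 whose groups did not overlap. It stood at 9.86, 9.84 and 9.88 in CD44-positive against 9.81, 9.79 and 9.73 in CD44-negative cells, a difference of 0.082 ± 0.087 (SE). Over all probe sets the groups did not overlap in 6.73%. The other ASAH1 probe sets differed by values from -0.13 to 0.13, the lower end belonging to its single dim probe set. The identifier of the brightest ASAH1 probe set carries a suffix of the platform that marks probes which may bind other transcripts.

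The genes of ceramide synthesis differed by 0.14 or less, with overlapping groups. SPTLC1 stood at 10.41, 10.45 and 10.37 in CD44-positive and at 10.47, 10.35 and 10.51 in CD44-negative cells on its brightest probe set. It differed by -0.032 ± 0.092 (SE) there and by values from -0.074 to 0.012 over all 3. SPTLC2 differed by 0.0052 ± 0.12 on its brightest probe set, by 0.14 ± 0.12 on the fourth brightest and by -0.14 ± 0.099 on its dim probe set. The third brightest SPTLC2 probe set stood at 7.56, 7.38 and 6.72 in CD44-positive and at 7.19, 7.33 and 6.99 in CD44-negative cells, with the lowest array of each sort in replicate 03. The ceramide synthase gene CERS2 had 1 probe set, at 9.98, 9.83 and 9.70 in CD44-positive and 9.69, 9.79 and 9.70 in CD44-negative cells, a difference of 0.11 ± 0.10 that came from pair 01 (0.29).

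**Figure D2:**
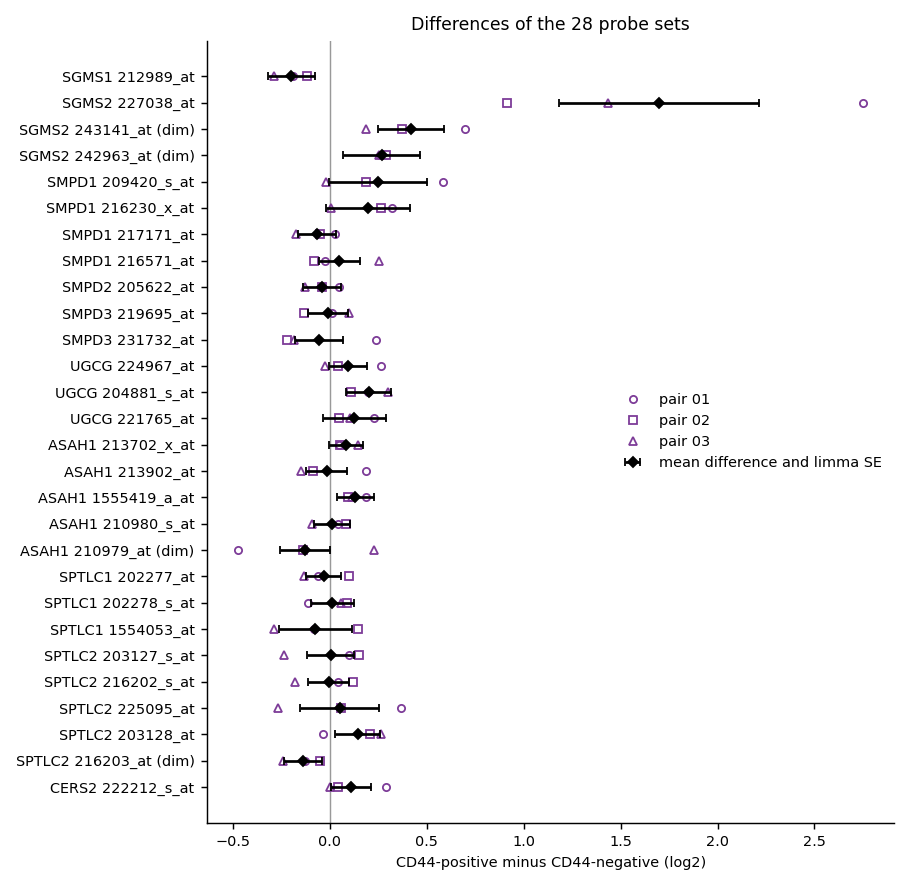
Difference between CD44-positive and CD44-negative cells (log2) for all 28 probe sets, with the mean and limma's SE as filled diamonds and bars and the 3 pair differences as open markers. The brightest SGMS2 probe set stands at 1.70, and 24 of the 28 lie within 0.25 of 0.

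Over the 28 probe sets 17 differences were positive and 11 negative, with a median of 0.031, against a median of -0.00051 over all 54613. Above the dim limit lay 24 of them, including the brightest probe set of each gene. All 3 pairs had 1 sign in 10 probe sets, 8 higher and 2 lower in CD44-positive cells, where 27.1% of all probe sets did. In limma's fit over all probe sets, 0 of the 28 passed an adjusted p of 0.05, where 0.00916% of all passed (5 probe sets, 4 of CD44 and 1 of TNFSF10). At an unadjusted p under 0.05 there were 1281 among all 54613 probe sets, and 3497 with the replicate number as a block. With that block 0 of the 28 passed the adjusted p as well, where 0.0513% did (28 probe sets). Since the members were chosen with this comparison in view, nothing is read from these counts. Without pair 02 the blocked fit passed 1 member, the brightest SGMS2 probe set. Pair 02 held the smallest of its 3 pair differences (0.91, against 2.75 and 1.43), and nothing is read from that pass either.

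The replicate numbers were compared next, with CD44 status in the model, a contrast other than the CD44 comparison. Of the 28 probe sets 3 differed between the numbers 01, 02 and 03 in limma's F test over all probe sets, where 4.16% of all did. These were the brightest and the second SMPD1 probe set (adjusted p = 0.0478 and 0.0343) and the dimmest SGMS2 probe set (adjusted p = 0.0267). In each of them number 02 was highest and number 03 lowest in both sorts. SMPD1 on its brightest probe set averaged 6.62, 7.08 and 6.29 over both sorts for the numbers 01, 02 and 03, and on the second 5.98, 6.37 and 5.67. The 2 SMPD1 probe sets that did not pass spread by 0.13 and 0.14 between the numbers, against 0.79 and 0.69 on the 2 that passed. The probe sets of SMPD1 thus disagreed on whether the gene varied. The identifiers of both that passed carry platform suffixes for probes that may bind more than 1 transcript, and the flat ones carry none; the part of this in the result was not tested.

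SGMS2 on its brightest probe set averaged 5.29, 6.50 and 5.03 for the numbers 01, 02 and 03 and did not pass (adjusted p = 0.0810), although its spread of 1.47 between the numbers was wider than that of 99.8% of all probe sets. It passed in 3 of 13 alternatives, each leaving out 1 array (CD44-positive replicate 01 or 02, or CD44-negative replicate 01), with adjusted p from 0.00274 to 0.38 over the 13. With 1 array left out, its replicate number is a single array, which is assumed to vary like the others. Without CD44-positive replicate 03 or without CD44-negative replicate 02, 0 members passed. The median spread between the numbers was 0.194 over the 28 probe sets, against 0.204 over all. The dimmest UGCG probe set spread by 0.45 between the numbers, lowest in 03 (adjusted p = 0.0730), and the dimmest SPTLC1 probe set by 0.55, lowest in 02 (adjusted p = 0.0795), and neither passed. With dim probe sets filtered out at the 30th percentile both did (adjusted p = 0.0358 for UGCG and 0.0449 for SPTLC1). With the brightest and the second SMPD1 probe set these made 4 members. That filter removed the dimmest SGMS2 probe set, and the brightest SGMS2 probe set did not pass under it (adjusted p = 0.0589). ASAH1 and the brightest probe sets of SPTLC1, CERS2 and SMPD2 spread by 0.148 or less.

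Of the markers of other cell types, ENO2 (adjusted p = 0.00245), the dim CHGB (0.0285) and COL3A1 (0.0045) differed between the replicate numbers in the same F test, and the other markers read did not pass. The summed level of the 6 neuroendocrine markers read was 7.54, 8.05 and 7.49 in CD44-positive replicates 01, 02 and 03 and 7.33, 7.90 and 7.37 in the CD44-negative ones, highest in number 02 in both sorts and higher in the CD44-positive array of every pair. Between the numbers that sum followed ENO2, which averaged 4.40, 6.47 and 4.65 for the numbers 01, 02 and 03. SYP (adjusted p = 0.893) and NCAM1 (0.674) did not pass in the F test. Of these markers 3 lay above the dim limit and CHGA, CHGB and INSM1 lay under it. The 3 above it were each higher in the CD44-positive array of every pair: ENO2 (0.78, 0.22 and 0.45), SYP (0.15, 0.29 and 0.079) and NCAM1 (0.12, 0.025 and 0.097). Those under it were not. The summed level of the 9 fibroblast markers was 11.86, 10.58 and 11.80 in CD44-positive and 11.02, 10.25 and 11.19 in CD44-negative cells, lowest in number 02 in both sorts and higher in the CD44-positive array of every pair. That sum was mostly COL3A1, a fibrillar collagen, at 11.63, 10.02 and 11.60 in CD44-positive and 10.61, 9.45 and 10.85 in CD44-negative cells. Of the 9 markers 4 were higher in the CD44-positive array of every pair. Besides COL3A1 these were COL1A2 (0.33, 0.31 and 0.30) and the dim LUM (3.27, 1.39 and 1.39) and FAP (0.16, 0.0095 and 0.32). COL1A1 was lower in the CD44-positive array of every pair (-0.19, -0.12 and -0.39), and PDGFRB differed by -0.13. DCN was highest in number 02 but did not pass in the F test (adjusted p = 0.775). Of that list 6 lay above the dim limit, and LUM, PDGFRA and FAP lay under it. Leukocyte markers summed to 8.45 to 8.50 in CD44-positive and 8.47 to 8.59 in CD44-negative cells, with 4 of the 7 read above the limit. The largest part came from PTPRC (mean level 7.17). Endothelial markers summed to 9.06 to 9.23 in CD44-positive and 9.16 to 9.22 in CD44-negative cells, with 5 of 7 above it. That sum was mostly ERG (mean level 8.33). A level above the limit, a percentile over genes, does not by itself show that such cells were present. The part of these lists in the SGMS2 and SMPD1 values was not tested.

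**Figure D3:**
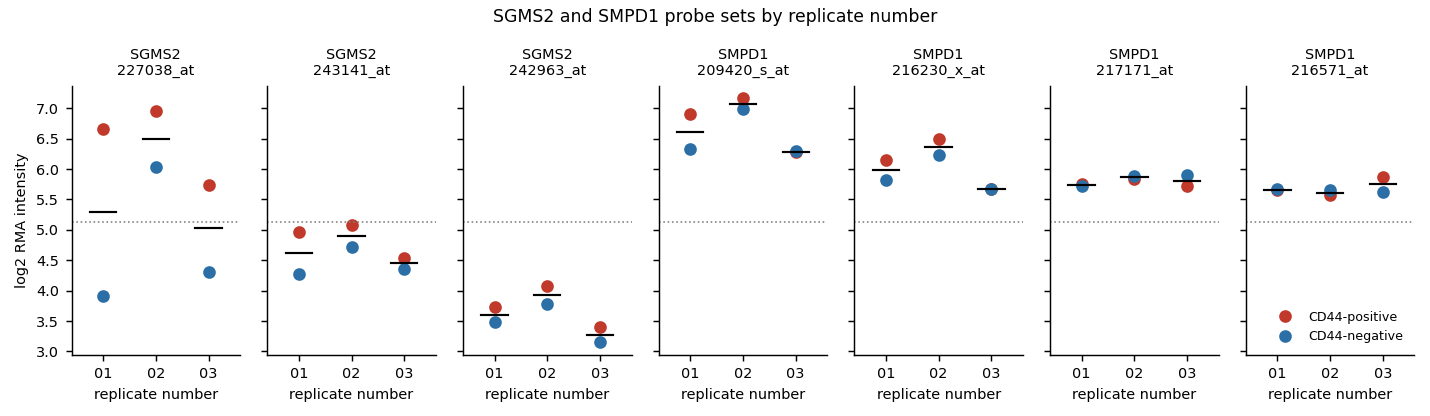
Log2 RMA intensity of the 3 SGMS2 and 4 SMPD1 probe sets by replicate number, with CD44-positive arrays in red, CD44-negative arrays in blue, short black lines for the mean of both sorts and a dotted line at the dim limit. Number 02 is highest on the SGMS2 probe sets and on the 2 brightest SMPD1 probe sets, while the remaining SMPD1 probe sets stay between 5.57 and 5.90.

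The genes most like SGMS2 over the 6 arrays were looked for among 13841 other genes above the dim limit, by Pearson's r between brightest probe sets. The 5 highest were LPIN1 (r = 0.995), a phosphatidate phosphatase, NAV1 (0.994), a neuron navigator protein, CPE (0.993), carboxypeptidase E, HERC6 (0.990), and PDK4 (0.990), the kinase that inhibits pyruvate dehydrogenase. These r values describe 6 arrays that share pairs and sorts, and high values are easily reached over so few. PDK4 stood at 7.15, 7.74 and 6.01 in CD44-positive and at 3.76, 6.32 and 3.58 in CD44-negative cells, with the same 2 arrays under the dim limit as in SGMS2. CPE stood at 10.21, 10.24 and 9.84 in CD44-positive and at 9.27, 9.87 and 9.43 in CD44-negative cells. NAV1 stood at 7.70, 7.71 and 7.03 in CD44-positive and at 6.13, 7.33 and 6.25 in CD44-negative cells. LPIN1 and HERC6 followed the same order of arrays over a narrow range, with differences of 0.22 and 0.13. Within the members, the brightest SGMS2 probe set had r = 0.83 with the brightest SMPD1 probe set, 0.91 with the second UGCG probe set and -0.87 with SGMS1.

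**Figure D4:**
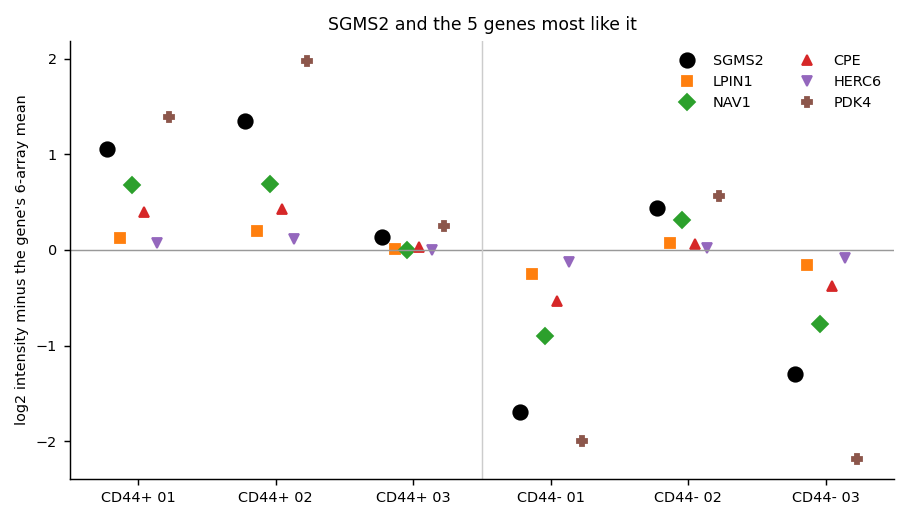
Log2 intensity of SGMS2 and of the 5 genes most like it in each array, as the distance from each gene's mean over the 6 arrays. SGMS2 and PDK4 span the widest range, and in all 6 genes CD44-negative replicate 02 lies above the other CD44-negative arrays.

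The rest of sphingolipid metabolism was read from 51 further genes, of which 43 had a probe set of their own. In limma's fit 0 of the 43 passed, with or without the replicate block, and without it 2 had an unadjusted p under 0.05, S1PR1 and ACER1, both dim (adjusted p = 1.00 and 1.00). With the block these and SMPDL3A, also dim, did (adjusted p at least 0.636). Their differences had a median of 0.0078, with 23 higher and 20 lower and 40 of them within 0.25 of 0. SAMD8, which makes ceramide phosphoethanolamine and is related to the sphingomyelin synthases, differed by -0.17 ± 0.12 (SE, adjusted p = 1.00). CERT1, which carries ceramide to the Golgi synthase, differed by 0.051 ± 0.13 and was tested alike (adjusted p = 1.00). KDSR and DEGS1, enzymes between the serine palmitoyltransferase product and ceramide, differed by -0.072 ± 0.11 and 0.0078 ± 0.11. SPHK1, a sphingosine kinase, differed by -0.067 ± 0.092 and SGPL1, the lyase that ends the pathway, by 0.018 ± 0.16.

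CERK, the ceramide kinase, stood at 9.19, 8.89 and 8.85 in CD44-positive and at 8.82, 8.84 and 8.66 in CD44-negative cells. Its difference was 0.20 ± 0.12 (SE, adjusted p = 1.00), and the SE with the replicate block was 0.091. Its groups did not overlap, as in 3 of the 43 genes, where 6.73% of all probe sets did not; the other two, ACER1 and S1PR1, were lower in CD44-positive cells. SMPD4, a further neutral sphingomyelinase gene, was not analysed here. Between the replicate numbers 2 of the 43 genes passed, where 4.16% of all probe sets did: ST3GAL5, the GM3 synthase (adjusted p = 0.0431), and the dim alkaline ceramidase gene ACER2 (adjusted p = 0.0492). ST3GAL5 averaged 7.50, 7.90 and 7.20 for the numbers 01, 02 and 03, highest in number 02, and ACER2 averaged 4.07, 3.85 and 3.53, highest in number 01.

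**Figure D5:**
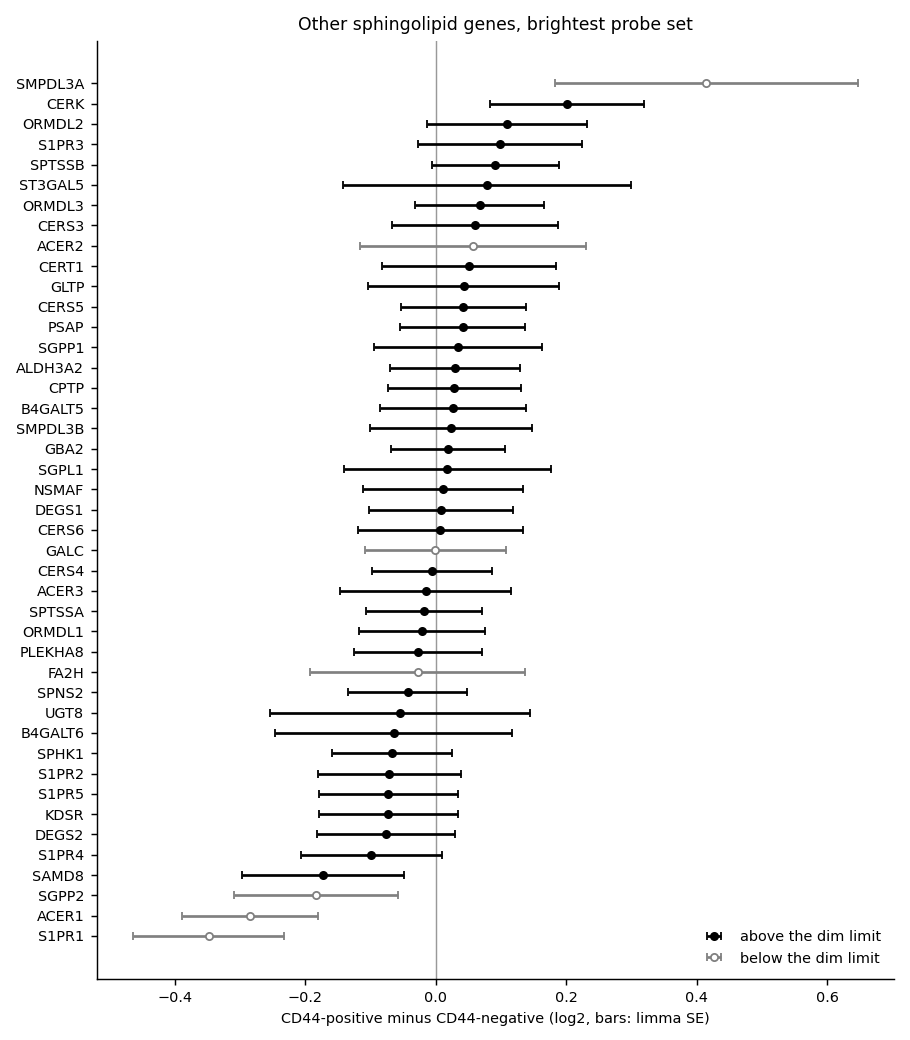
Difference between CD44-positive and CD44-negative cells (log2) of the 43 other sphingolipid genes on their brightest probe sets, with limma's SE as bars and open markers for genes under the dim limit. The differences run from -0.35 for S1PR1 to 0.42 for SMPDL3A, and the 3 farthest from 0 belong to dim genes.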

How the data were processed

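Total RNA of sorted COLO-320DM cells was hybridised to Affymetrix arrays, 3 of each sort, per the labels. The deposited intensity values had been made with RMA, per the submitters' processing notes; the sources used here do not give its version or software. RMA evens out the distributions of arrays and compresses differences near the background. The values were on a linear scale, and log2 was taken with no pseudocount. Of 54675 probe sets, 62 controls were left out. Platform annotation named 1 gene for 41091, several for 1801 and none for 11721, and symbols were updated by gene ID for 41037. The dim limit was the 30th percentile of the brightest probe set per gene.

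All 54613 probe sets were fitted with limma 3.58.1 (R 4.3.3; lmFit and eBayes, two-sided, Benjamini-Hochberg, threshold 0.05), first without the replicate number. The number was then used as a block and in an F test. Deviations from group means correlated at 0.392, 0.533 and 0.557 between same-numbered arrays, so same-numbered arrays were treated as pairs, a reading from the data alone. The fits were run on simulated data with independent noise and, for the CD44 comparison, no effect of the replicate number. Those runs do not show how the fit without the block behaves where same-numbered arrays correlate. Python 3.11.15, pandas 2.3.3 and matplotlib 3.10.9 were used for promoters and figures. The members and gene lists were chosen with earlier results of these data known. All members were named, with 9 set genes of the wider list where read, any of it that passed, and the 5 genes most like the most variable bright member. ST3GAL5, ACER2, S1PR1, ACER1, SMPDL3A and TNFSF10 were named after their values were seen. Alternatives were other normalizations, filters on dim probe sets, summaries per gene, variance moderation, array weights and leaving out arrays or pairs. The precision is limited by the number of arrays.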

Additional observations from a re-analysis of the deposited data

How the results depend on the processing

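With the replicate block 28 probe sets passed in the CD44 comparison, against 5 without it. It was 1 with the 30th percentile filter on dim probe sets or without _s_at and _x_at probe sets. It was 0 with the 50th percentile filter, with the brightest probe set or the mean of probe sets per gene, and with trend and robust moderation. Leaving out arrays gave 0 to 10 without the block and leaving out pairs gave 25 to 87 with it. Members passing ranged from 0 to 1. The 1 was SGMS2 with the block when pair 02, the pair with its smallest difference, was left out. Nothing is read from that pass, since the members were chosen with this comparison in view. Apart from array weights (2.60) and arrays or pairs left out, the CD44 difference stayed at 2.47. It no longer passed on the brightest probe set with either filter (adjusted p = 0.0859 and 0.311), per gene (0.106) and with trend and robust moderation (0.0576). It passed with the block (0.000511), array weights (0.0104), median centring (0.0371) and renewed quantile normalization (0.0498). It was 2.26 to 2.76 over arrays or pairs left out.

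Probe sets passing between the replicate numbers were 2272, against 3802 and 4705 with the filters, 1430 with the brightest probe set per gene, 657 with the mean of probe sets, 6756 with trend and robust moderation and 1064 to 2674 without 1 array. Members passing were 3, against 1 with the brightest probe set per gene or without _s_at and _x_at probe sets, 0 with the mean of probe sets, 6 with trend and robust moderation and 0 to 5 without 1 array. The brightest SMPD1 probe set passed in 9 of 13 alternatives and the second in 8 of 11. The dimmest SGMS2 probe set passed in 7 of 11 and the brightest, which had not passed in the main test, in 3 of 13. Alternatives without 1 array left 1 number with a single array. The cause of these changes was not tested. Of 490 differences of member probe sets recomputed under alternatives, 443 kept their sign, and SGMS1, all SGMS2 probe sets and CERS2 kept it in each. SGMS2 ranged from 1.17 to 2.34. The block changed no member's call in the CD44 comparison with all arrays. Signal near the background limits SGMS2, whose lower levels were dim.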
